A study of Daphnia magna with 15 samples.

Results

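The list of Daphnia magna loci in this study holds a small group whose outer coordinates lie under 100 bp apart. They were chosen by position alone, as end minus start over all transcripts of a locus, and numbered 73 of 18877 loci. Widths ran from 40 to 98 bp, with a median of 63 bp, and each of the 73 loci held 1 transcript. Whole neonates of the water flea, a small freshwater crustacean used in toxicity testing, had been kept for 24 h with an anticancer drug or in medium alone, and messenger RNA libraries were sequenced. The groups were etoposide at 300 ng/L, imatinib mesylate at 2000 ng/L, cisplatin (Cisplatinum in the sample titles) at 10 ng/L, and the unexposed sets control A and control B, with 3 libraries each.

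All animals came from 1 laboratory strain, were 48 to 72 h old and went unfed, 20 to 25 together in 25 mL, so the RNA is from pooled animals. Nothing in the labels ties a control set to a drug or tells whether replicates had separate cultures. The p-values below thus describe variation among libraries that may be technical. Etoposide is a poison of topoisomerase II, imatinib an inhibitor of tyrosine kinases, and cisplatin a DNA-crosslinking platinum drug. In whole animals, fewer cells of a type and less RNA per cell cannot be told apart. No gene names come with the table, and 0 of the 73 identifiers matched the RefSeq gene table, so no function can be given for any of them.

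Loci of this kind are made by the assembler, which joins overlapping aligned fragments and gives each resulting interval an identifier of the XLOC form. The level used here, FPKM, is the number of fragments divided by the usable length of the transcript and by the size of the library. The usable length is what is left for placing a fragment, so it shrinks quickly as a transcript approaches the length of the fragments themselves. Library kits for messenger RNA are designed for long polyadenylated transcripts that are then fragmented, and mature small RNAs such as transfer RNAs are not their usual targets.

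The 73 loci lay on 72 scaffolds, of which 1 held 2 of them. None overlapped another locus (0 of 73), against 5765 of the 18804 loci of 100 bp or more, or 30.7%. All 5765 were loci of 500 bp or more, and 0 of the 105 loci of 100 to under 200 bp overlapped another. The lack of overlap was thus not particular to the 73 loci. For 10 of the 73 loci (13.7%) no other locus was listed on the scaffold, against 2.06% of the loci of 100 bp or more. The other 63 had a nearest neighbour at a median of 2102 bp, with a range of 54 to 32369 bp, against a median of 214 bp for the loci of 100 bp or more. A neighbour within 1000 bp was present for 21 of the 73 loci (28.8%) and for 84.5% of the loci of 100 bp or more. Of the loci of 100 to under 200 bp, 20% were alone on a scaffold, and the median distance of the others was 577.5 bp. These values are descriptions of positions, and no test was made of them.

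Levels were very high for such short intervals. Of the 1095 values of the 73 loci, 1043 were above 0 and 1031 were above 1000 FPKM, with a lowest value above 0 of 154.3 FPKM and a highest of 2758590 FPKM. By mean level over the 15 libraries, 70 of the 73 loci were among the 73 highest of all loci. The mean level had a median of 41878 FPKM over the 73 loci, against 44.2 FPKM over the 105 loci of 100 to under 200 bp and 12.5 FPKM over the 17838 loci of 500 bp or more.

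The level fell steeply with width. The 25 loci under 60 bp had a median mean level of 138085 FPKM, the 39 loci of 60 to 79 bp 31135 FPKM, and the 9 loci of 80 to 99 bp 4805 FPKM. Over the 73 loci, Spearman's rho of width with mean level was -0.92, and within single libraries it ran from -0.93 to -0.83. The points share libraries and a division by length, so this is a description without a p-value. A straight line through the log2 values had a slope of -6.59, and 2 loci, chosen after their values were seen, lay over 1.5 above it on the log2 scale. These were XLOC_006153 (scaffold01269, 5227 to 5298), at 2.45 above the line, and XLOC_018143 (scaffold03382, 23981 to 24079), at 2.12 above it.

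**Figure D1:**
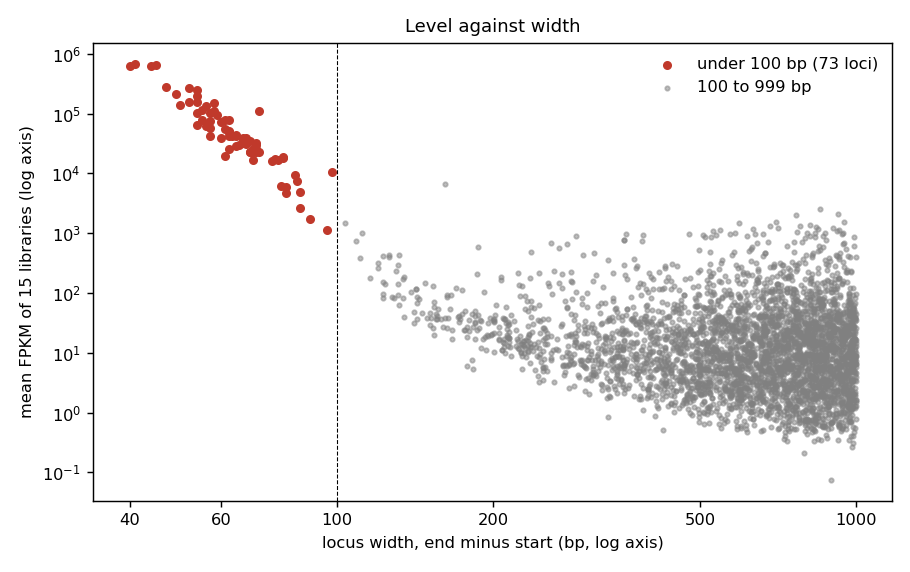
Mean FPKM of 15 libraries (log axis) against locus width in bp (log axis), 1 point per locus, for the 73 loci under 100 bp and for loci of 100 to under 1000 bp. The 73 loci fall from 688240 FPKM at 41 bp to 1114 FPKM at 96 bp and the first wider locus, at 104 bp, averages 1495 FPKM.

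The widest locus inside the limit of 100 bp, XLOC_018143 at 98 bp, averaged 6640 ± 2249 FPKM with etoposide, 8638 ± 6794 with imatinib, 7910 ± 3691 with cisplatin, 24160 ± 30544 FPKM for control A and 5983 ± 2891 FPKM for control B (SD, n = 3 each). Its 59424 FPKM in control A 1 stood far above the 6007 and 7049 FPKM of the other control A libraries. The next, XLOC_001995 (scaffold00773, 14723 to 14819, 96 bp), had a median of 958.0 FPKM over the libraries and was listed at 0 in etoposide 3 and control A 1. The narrowest loci outside the limit, XLOC_013995 (scaffold02327, 31575 to 31679, 104 bp) and XLOC_000762 (scaffold00291, 5159 to 5268, 109 bp), averaged 1495 and 743.7 FPKM over all libraries. XLOC_013995 had its highest value in control A 1 too, at 7824 FPKM, while XLOC_000762 was listed at 0 there.

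The 73 loci took 72.6% to 96.1% of the summed FPKM of a library. The share averaged 88.9% ± 4.76 with etoposide, 89.1% ± 8.28 with imatinib, 86.9% ± 3.82 with cisplatin, 81.4% ± 9.90 for control A and 86.0% ± 6.08 for control B (SD, n = 3 each). The ranges of the groups overlapped, and the distances between the group means were smaller than the wider SD of each pair. As a sum over chosen loci, the share is given without a test. By width, the loci under 60 bp held a median of 71.0% of the summed FPKM of a library, those of 60 to 79 bp 16.7% and those of 80 to 99 bp 0.562%. FPKM divides by the usable length, so these are not shares of the fragments or of the RNA of a library. The 105 loci of 100 to under 200 bp held a median of 0.241% of the summed FPKM.

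In absolute terms the libraries differed much more than in share. The summed level was 7458390, 4034910 and 10099100 FPKM in the etoposide libraries and 2865670, 20192300 and 8519620 FPKM in the imatinib libraries. It was 5064900, 7933120 and 3724790 FPKM with cisplatin, 12160700, 3164040 and 1944780 FPKM for control A, and 6593860, 2791670 and 6716640 FPKM for control B. The ranges of all groups overlapped, and imatinib and control A each held 1 library far above its other two. Over the same libraries the loci of 100 bp or more summed to between 718827 and 1041550 FPKM.

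**Figure D2:**
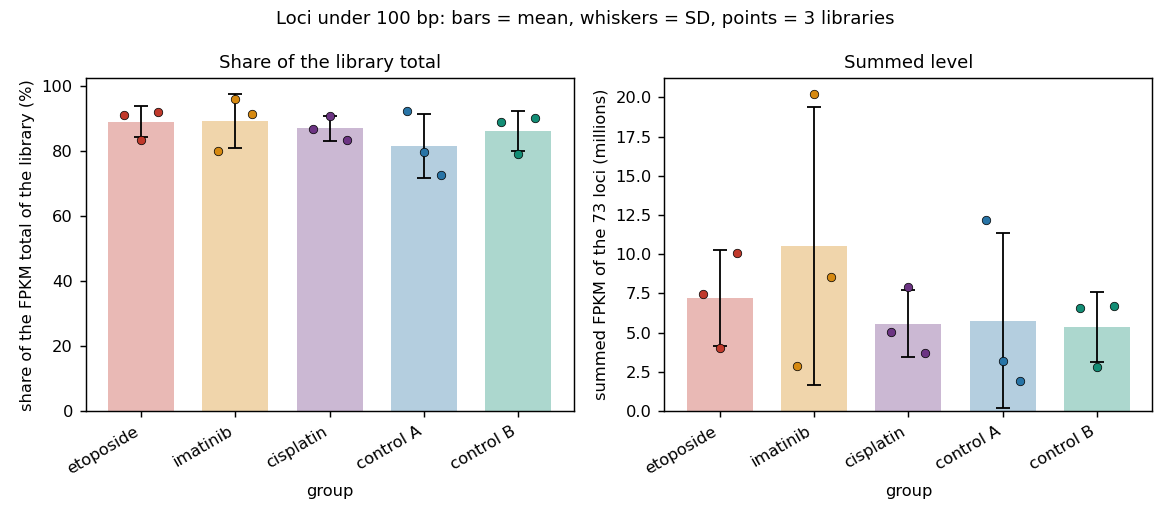
Left, share of the FPKM total of each library taken by the 73 loci (%), right, their summed FPKM, for etoposide, imatinib, cisplatin, control A and control B. Bars are means of 3 libraries, whiskers SD and points single libraries. Shares lie between 72.6% and 96.1%, and the sums of imatinib (2865670 to 20192300 FPKM) and control A (1944780 to 12160700 FPKM) spread most.

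The same few libraries stood high or low for most of the 73 loci. Imatinib 2 held the highest value of 35 loci and control A 1 that of 29, which leaves 9 loci for the other 13 libraries. The lowest value above 0 was in control A 3 for 26 loci, in etoposide 2 for 15 and in imatinib 1 for 10. Imatinib 2 was above imatinib 1 in 73 of 73 loci, by a median of 7.33-fold over the 70 loci above 0 in both. Control A 1 was above control A 3 in all 51 loci above 0 in both, by a median of 9.57-fold. For a single locus, the highest value was a median of 18.2 times its lowest value above 0, with a range of 5.46 to 88.0 times.

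The 5 loci with the highest mean level all lay under 50 bp. XLOC_017586 (scaffold03218, 20328 to 20369, 41 bp) was the highest of all loci, with a mean of 688240 FPKM. It had 315573, 907356 and 758655 FPKM with etoposide and 303846, 2758590 and 566767 FPKM with imatinib. It had 678067, 607099 and 347695 FPKM with cisplatin, against 0, 288770 and 352384 FPKM in control A, and 1060000, 0 and 1378800 FPKM in control B. Each drug group overlapped control B, and the 2 libraries at 0 belonged to different control sets.

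XLOC_010423 (scaffold01834, 17527 to 17572, 45 bp), the single one of the 5 without a value of 0, was also alone on its scaffold. It had 458727, 311281 and 1198920 FPKM with etoposide and 137020, 2370610 and 1368590 FPKM with imatinib. It had 318295, 647214 and 182390 FPKM with cisplatin, against 629791, 408845 and 117669 FPKM for control A, and 671243, 268235 and 823850 FPKM for control B. The imatinib libraries alone spanned 137020 to 2370610 FPKM, which covered the values of every other group but the 117669 FPKM of control A 3.

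XLOC_006753 (scaffold01347, 13870 to 13910) was the narrowest locus at 40 bp. It had 1508090, 673986 and 1843960 FPKM with etoposide, against 0, 351359 and 110345 FPKM in control A and 425934, 551512 and 0 FPKM in control B. All 3 etoposide libraries lay above all 6 control libraries, yet the locus passed the test in no comparison. XLOC_011917 (scaffold02003, 15150 to 15194, 44 bp) had 1390000, 0 and 189219 FPKM in control A, a spread that covered most values of the other groups. The fifth, XLOC_017629, is described with the loci that passed a test.

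**Figure D3:**
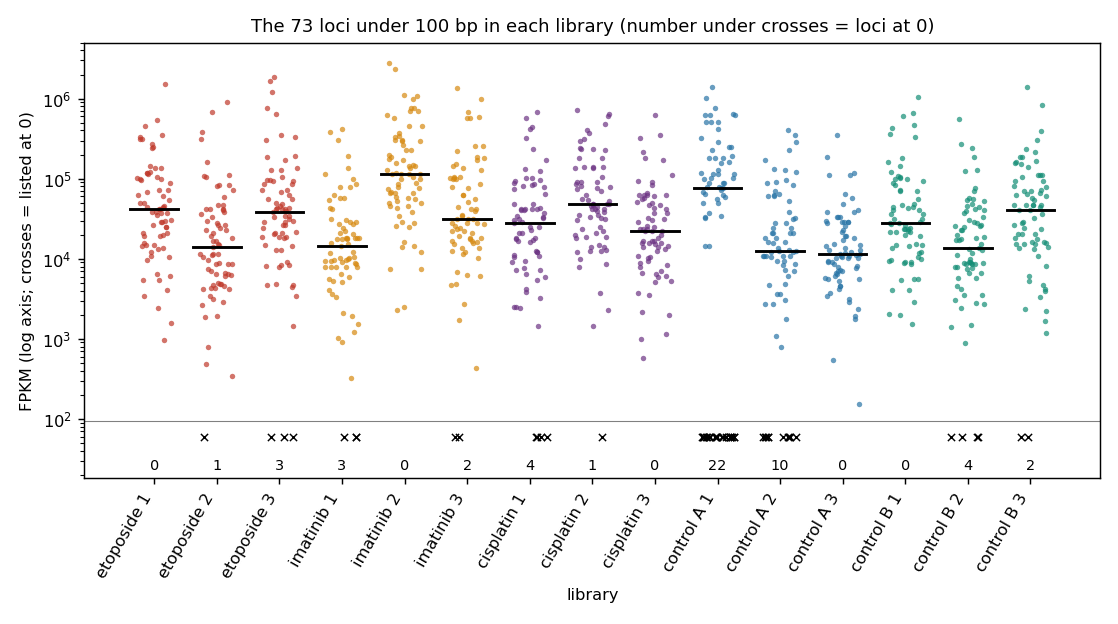
FPKM of each of the 73 loci (log axis) in each of 15 libraries, with the median as a black line and loci listed at 0 as crosses below the grey line, their number printed underneath. Medians run from 11518 FPKM in control A 3 to 113484 FPKM in imatinib 2, and control A 1 has 22 crosses beside a median of 77405 FPKM.

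Values of exactly 0 were concentrated in control A. Of 52 such values among the 73 loci (4.75%), etoposide held 4, imatinib 5, cisplatin 5, control A 32 and control B 6. Control A 1 was at 0 in 22 loci and control A 2 in 10, while control A 3 was at 0 in none of the 73, and the other 12 libraries together held 20. Across all 18877 loci, 1.22% of values were 0, and loci of 100 to under 200 bp had 8.06%. Control A 1 was at 0 in 40% of the 105 loci of 100 to under 200 bp and in 30.1% of the 73 shorter loci.

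Of the 73 loci, 40 were above 0 in every library, 16 were at 0 in 1 library, 15 in 2 and 2 in 3. The last were XLOC_001238 (scaffold00465, 10027 to 10083, 56 bp) and XLOC_009345 (scaffold01676, 1023 to 1084, 61 bp). XLOC_001238 was at 0 in etoposide 2, control A 1 and control B 2, and its highest value was 342872 FPKM in imatinib 2. XLOC_009345 was at 0 in imatinib 1, control A 1 and control B 2. Outside control A, no group had a locus at 0 in 2 of its libraries (0 of 73). In control A, 4 loci were at 0 in both control A 1 and control A 2.

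The size of single values showed a regular structure. Of the 73 loci, 54 shared their width with another, at 19 widths. In all 124 sets of 3 or more values above 0 with the same width and library, the values were whole multiples of 1 common step within 0.01 of a step. Pairs of values do not fix a step, since divisors up to 40 were tried, and are left out here. Values written with fewer digits were allowed their rounding error. The highest multiple in these sets had a median of 6 and reached 12. Where whole fragments were counted, 1 step is the worth of 1 fragment, or of several if all values of a set share a divisor, and the table does not say which. Equal levels therefore occurred often. There were 107 exact repeats of a value between loci of the same width and library, and 0 between loci of different widths.

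The 6 loci of 62 bp, the width shared by most, were taken after their values were seen to show these steps. The step was 10938, 3820 and 10450 FPKM with etoposide, 4466, 37828 and 14133 FPKM with imatinib and 10577, 16250 and 8293 FPKM with cisplatin. In the unexposed sets it was 102835, 10532 and 3600 FPKM in control A and 11904, 4321 and 11722 FPKM in control B. The step in control A 1 was 28.6 times that in control A 3, within the same group and at the same width. The number of steps ran the other way between these libraries.

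Summed over the 6 loci, there were 39, 29 and 26 steps with etoposide, 26, 25 and 16 with imatinib and 16, 19 and 17 with cisplatin. There were 7, 13 and 27 steps in control A and 20, 30 and 35 in control B. Control A 1 thus had the fewest steps of all libraries but 719844 FPKM, and control A 3 had 27 steps but 97187 FPKM, the lowest sum. The step was also highest in control A 1 for the loci of 54 and 70 bp, at 252048 and 39111 FPKM.

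**Figure D4:**
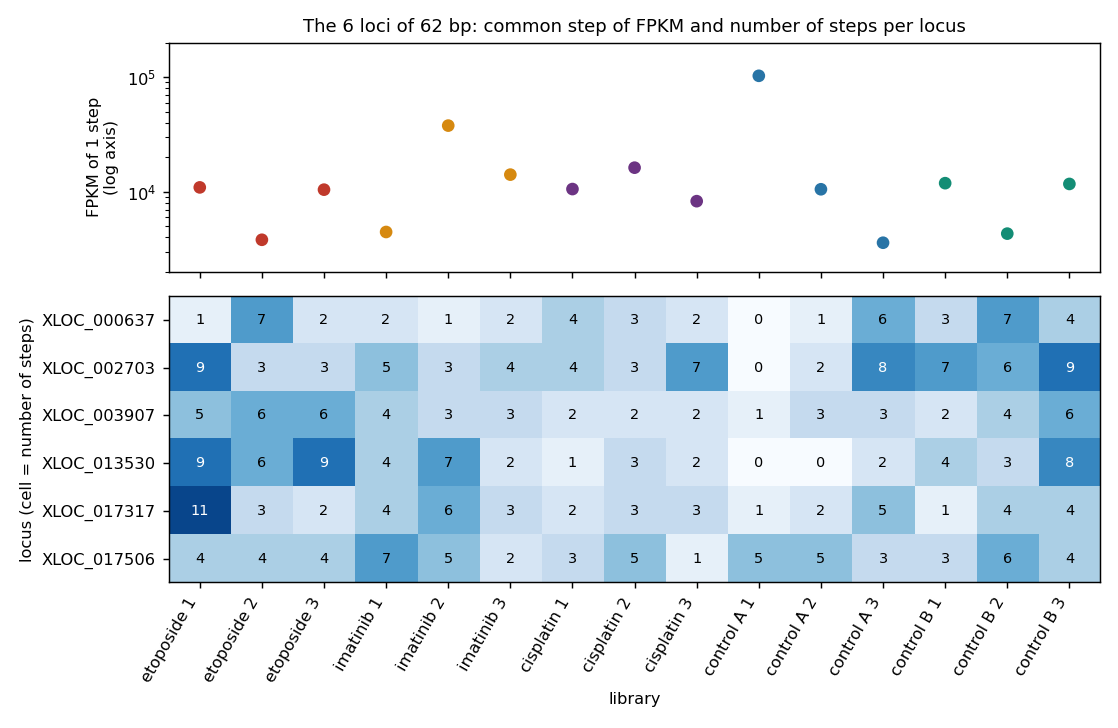
Top, FPKM worth of 1 common step (log axis) in each of 15 libraries for the 6 loci of 62 bp. Bottom, number of steps of each locus in each library, with darker cells for more steps. The step is 102835 FPKM in control A 1 and 3600 FPKM in control A 3, and no cell exceeds 11 steps.

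XLOC_006153, the locus farthest above the line of level on width, had 87905, 38068 and 106063 FPKM with etoposide and 42591, 327086 and 101766 FPKM with imatinib. It had 84038, 138969 and 55815 FPKM with cisplatin, against 414598, 38622 and 33387 FPKM for control A, and 89184, 37510 and 79617 FPKM for control B. These ranges overlapped, and the locus passed in none of the 7 comparisons. It shared its width with 1 other locus, too few values to fix the step.

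Change across groups was tested on log2(FPKM + 1) with limma, fitted on the 18098 loci whose mean reached 1 FPKM and adjusted over all of them by the Benjamini-Hochberg method, with a threshold of 0.05. All 73 loci passed that filter. In the F test over the 5 groups, 3 of the 73 loci passed (4.11%), against 41.5% of all loci tested. These were XLOC_013530 (scaffold02249, 29929 to 29991, 62 bp), XLOC_014349 (scaffold02394, 25118 to 25178, 60 bp) and XLOC_017629 (scaffold03233, 7028 to 7075, 47 bp), at limma adjusted p = 0.0152, 0.0211 and 0.0265. Their number fell to 1 without control A 1 and to 0 without control A 2.

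The spread behind these tests was wide. Within groups, the SD of log2(FPKM + 1) had a median of 1.49 for the 73 loci, 0.987 for the 105 loci of 100 to under 200 bp and 0.268 over all loci. The fitted standard error of a difference had a median of 1.64 log2 units for the 73 loci and 0.245 over all loci tested. A 95% interval therefore reached a median of 3.56 log2 units to either side, and differences smaller than that were mostly not detectable.

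In etoposide against control A, 3 of the 73 loci were higher and 0 lower (limma, adjusted p under 0.05), or 4.11%, against 15.5% of all loci tested, of which 7.63% higher and 7.82% lower. Without overlap between the groups, 7 of 73 were higher and 0 lower, against 25.3% of all loci (12.8% higher and 12.5% lower). The median log2 change of the 73 loci was 0.20, with 44 above 0 and 29 below, against 0.02 over all loci, and it was -0.03 after quantile normalization. Quantile normalization gives every library the same set of values. Of the 73 highest loci of a library, 51 to 71 were under 100 bp. A median near 0 after it was thus largely fixed in advance, here and in the comparisons below. The largest changes past the threshold were in XLOC_017629 and XLOC_013530. The count was 0 without etoposide 3 or control A 2, 6 without control A 3, and 0 in a fit of the 6 libraries alone, where 0.00553% of all loci passed and 4 of the 73 had an unadjusted p under 0.05 (limma).

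XLOC_017629 had 328259, 104580 and 352777 FPKM with etoposide, against 0, 0 and 110728 FPKM in control A. The etoposide range reached below the value of control A 3, so the groups overlapped. The log2 change was 12.22 (SE 3.34, limma, adjusted p = 0.0328), a size set by the pseudocount at the zeros, with 14.44 at a pseudocount of 0.1 and 10.01 at 10. In control B the locus had 471946, 185025 and 233209 FPKM, and the log2 change of etoposide against that set was -0.25 (limma, adjusted p = 0.966).

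XLOC_013530 had 98438, 22918 and 94047 FPKM with etoposide, against 0, 0 and 7199 FPKM in control A, without overlap. These values were 9, 6 and 9 steps with etoposide and 0, 0 and 2 steps in control A. In control A 1, 1 step at this width was 102835 FPKM, above every etoposide value. Where 1 step is 1 fragment, the 0 of that library does not show a level below etoposide. In control A 2, also at 0, 1 step was 10532 FPKM, below every etoposide value. The log2 change was 11.59 (SE 2.65, limma, adjusted p = 0.0213). Control B had 47615, 12963 and 93776 FPKM, or 4, 3 and 8 steps, which overlapped etoposide (limma, adjusted p = 0.886).

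In etoposide against control B, 0 of the 73 loci passed, and 0 had an unadjusted p under 0.05 (limma), against 28.7% of all loci past the threshold (7.28% higher and 21.4% lower). The smallest adjusted p among the 73 was 0.263. Groups without overlap numbered 4 higher and 2 lower of 73, against 48.6% of all loci (13.7% higher and 34.9% lower). The median log2 change of the 73 loci was 0.11, against -0.18 over all loci, and -0.05 after quantile normalization, where 1 locus passed. After median centring it was 0.36, with 54 above 0 and 19 below, against 42 and 31 without it.

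In imatinib against control A, 4 of the 73 loci were higher and 0 lower (limma, adjusted p under 0.05), or 5.48%, against 9.03% of all loci tested, of which 4.14% higher and 4.9% lower. Without overlap, 8 of 73 were higher and 0 lower, against 24.4% of all loci (11.8% higher and 12.6% lower). Those with the largest change were again XLOC_017629 and XLOC_013530, and XLOC_014349 and XLOC_004900 (scaffold01131, 100770 to 100855, 85 bp) were the others. XLOC_017629 had 190268, 691069 and 565424 FPKM with imatinib, all above control A, at a log2 change of 13.10 (SE 3.34, limma, adjusted p = 0.0335). XLOC_013530 had 17864, 264796 and 28266 FPKM, or 4, 7 and 2 steps, at a log2 change of 11.37 (SE 2.65, limma, adjusted p = 0.0256). In steps, imatinib 3 and control A 3 were equal at 2, although their levels were 28266 and 7199 FPKM. The values of imatinib 1 and imatinib 3 lay below the 102835 FPKM of 1 step in control A 1. Each imatinib value lay above the 10532 FPKM of 1 step in control A 2.

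Over the 73 loci the median log2 change for imatinib against control A was 0.74, with 58 above 0 and 15 below, against 0.01 over all loci. It was -0.07 after quantile normalization, with 36 above 0 and 37 below, a result largely fixed in advance for loci at the top of each library. The count of 4 became 0 without imatinib 2, imatinib 3 or control A 2, and 2 without imatinib 1, control A 1 or control B 3. It was 0 in a fit of the 6 libraries alone, where 0.0111% of all loci passed and 4 of the 73 had an unadjusted p under 0.05 (limma).

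In imatinib against control B, 0 of the 73 loci passed and 0 had an unadjusted p under 0.05 (limma), against 23.2% of all loci past the threshold (6.29% higher and 16.9% lower). Without overlap, 1 of 73 was higher and 0 lower, against 49.8% of all loci (13.1% higher and 36.7% lower). The smallest adjusted p was 0.148. The median log2 change of the 73 loci was 0.53, with 60 above 0 and 13 below, against -0.21 over all loci, and was -0.13 after quantile normalization, with 28 above 0. Imatinib 2, with the largest summed level, lies in this group.

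In cisplatin against control A, 4 of the 73 loci were higher and 0 lower (limma, adjusted p under 0.05), or 5.48%, against 21.3% of all loci tested, of which 16.1% higher and 5.16% lower. Without overlap, 7 of 73 were higher and 0 lower, against 38.8% of all loci (29.2% higher and 9.61% lower). XLOC_017629 had 446803, 481706 and 66800 FPKM with cisplatin, which overlapped the 110728 FPKM of control A 3, at a log2 change of 12.31 (SE 3.34, limma, adjusted p = 0.0244). XLOC_014349 had 41996, 41703 and 32057 FPKM with cisplatin, against 0, 0 and 9049 FPKM in control A, at a log2 change of 10.84 (SE 2.66, limma, adjusted p = 0.0165).

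The count for cisplatin against control A became 0 without cisplatin 1, 1 without cisplatin 2, cisplatin 3 or control A 2, and 7 without control A 3. It was 0 in a fit of the 6 libraries alone, where 4.25% of all loci passed and 3 of the 73 had an unadjusted p under 0.05 (limma). The median log2 change of the 73 loci was 0.17, against 0.25 over all loci, and was -0.10 after quantile normalization and -0.08 after median centring.

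In cisplatin against control B, 0 of the 73 loci passed and 0 had an unadjusted p under 0.05 (limma), against 0% of all loci past the threshold. XLOC_014349 had 15495, 5717 and 15436 FPKM in control B, all below its cisplatin values, at a log2 change of 1.79 with a 95% interval of -4.01 to 7.58 (limma, adjusted p = 1). Of the 73 loci, 5 were higher and 1 lower without overlap, against 8.17% of all loci (4.11% higher and 4.07% lower). The median log2 change of the 73 loci was 0.25, against 0.01 over all loci, and 0 after quantile normalization.

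In control A against control B, 0 of the 73 loci were higher and 4 lower (limma, adjusted p under 0.05), or 5.48%, against 23.4% of all loci tested, of which 6.49% higher and 16.9% lower. Without overlap, 0 of 73 were higher and 7 lower, against 38.5% of all loci (10.7% higher and 27.8% lower). Both sets were unexposed. The median log2 change of the 73 loci was -0.01, against -0.24 over all loci, with 0.08 after quantile normalization and 0.21 after median centring. XLOC_017629 and XLOC_013530 had the largest changes, with log2 values of -12.47 (SE 3.34, limma, adjusted p = 0.0212) and -10.97 (SE 2.65, limma, adjusted p = 0.0137). For XLOC_013530, every control B value lay below the 102835 FPKM of 1 step in control A 1. Where 1 step is 1 fragment, the 0 there does not show a lower level. Each control B value lay above the 10532 FPKM of 1 step in control A 2, which was also at 0. XLOC_014349 passed with values that overlapped, since 9049 FPKM in control A 3 lay above the 5717 FPKM of control B 2. The count became 0 without control B 3, 1 without control B 1 or control B 2, and 0 in a fit of the 6 libraries alone, where 6.54% of all loci passed and 4 of the 73 had an unadjusted p under 0.05 (limma).

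The loci past the threshold were the same in these comparisons. XLOC_013530, XLOC_014349 and XLOC_017629 passed in all 4 comparisons with control A, and XLOC_004900 in all but that with etoposide, where it had a limma adjusted p = 0.0523. These comparisons share the control A libraries. The 4 loci are also the 4 listed at 0 in both control A 1 and control A 2, so every locus called in this fit was at 0 in those libraries. The counts also fell when libraries of other groups were left out. XLOC_004900 had 2420, 484.8 and 4668 FPKM with etoposide and 912.5, 14224 and 2715 FPKM with imatinib. It had 2495, 2279 and 583.6 FPKM with cisplatin, against 0, 0 and 1908 FPKM in control A, and 1548, 2769 and 3301 FPKM in control B. The single control A value above 0 lay inside the range of each of the other groups.

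The 40 loci above 0 in every library passed in none of the 7 comparisons, with 0 calls and 0 unadjusted p under 0.05 (limma). Over all loci tested, 0% to 28.7% passed by comparison, and 1.23% to 40.1% had an unadjusted p under 0.05 (limma). The 40 loci were picked by their own values. Their standard error had a median of 1.12 log2 units, against 0.245 over all loci tested, so small changes were mostly not detectable. The fitted log2 changes of the 40 loci ran from -1.39 to 2.00 over the 7 comparisons. The steadiest were XLOC_011808 (scaffold01993, 3903 to 3968, 65 bp) and XLOC_001635 (scaffold00638, 9493 to 9561, 68 bp), with SDs of 0.82 and 0.87 log2 units over the 15 libraries, against a median of 0.416 over all loci tested. XLOC_011808 averaged 33243 ± 16093 FPKM with etoposide, 23501 ± 4875 with imatinib and 38564 ± 8834 with cisplatin, against 31520 ± 35377 FPKM for control A and 23589 ± 669 FPKM for control B (SD, n = 3 each). Its control A values of 72075, 7001 and 15485 FPKM held both the highest and the lowest of the 15. XLOC_001635 averaged 22393 ± 11042 FPKM with etoposide, 32898 ± 31147 with imatinib and 18979 ± 8247 with cisplatin, against 23553 ± 22880 FPKM for control A and 17265 ± 4514 FPKM for control B (SD, n = 3 each).

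**Figure D5:**
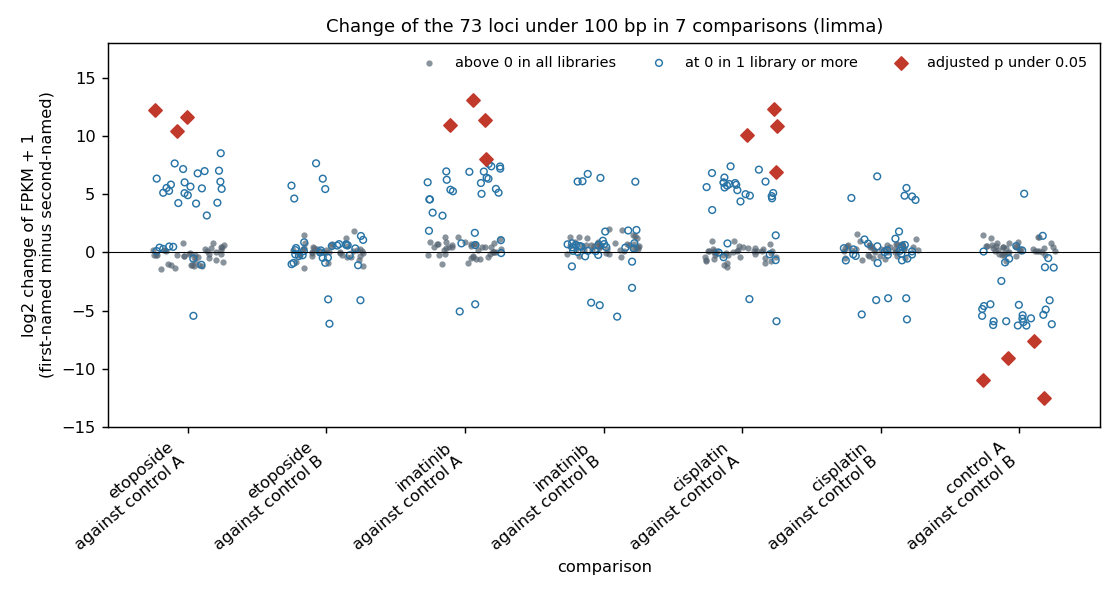
Log2 change of FPKM + 1, first-named minus second-named group, of the 73 loci in 7 comparisons, 1 point per locus. Grey points are the 40 loci above 0 in all libraries, between -1.39 and 2.00, open circles loci at 0 in 1 library or more, and red diamonds the loci past the threshold, found in the 4 comparisons with control A.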

How the data were processed

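The values are FPKM as deposited by the authors, for 33982 transcripts in 15 libraries. Cufflinks 2.2.1, Cuffdiff, TopHat2 2.0 with Bowtie2 2.1, Trim Galore and CASAVA 1.8.0 are the tools listed, per the submitters' processing notes. The TruSeq stranded mRNA kit was used on 320 ng of total RNA, per the labels' protocols. Build, settings and scaling: not given in the sources used here. Positions are those of the deposited table. Read counts are not part of it, so absolute depth is unknown and no counting interval is given.

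FPKM were summed per locus and positions taken from the smallest start to the largest end. The 18098 loci whose mean reached 1 FPKM entered a limma fit (3.58.1, under R 4.3.3) of log2(FPKM + 1), with a mean-variance trend and the 5 groups of all 15 libraries sharing 1 estimate of the spread. Other values were computed with Python 3.11.15, pandas 2.3.3 and numpy 2.4.6. The fit was tested on simulated data. The loci, lists and tests were chosen with earlier results of these data known. Named loci are the 5 highest by mean level, up to 2 with the largest change each way per comparison, the 3 smallest p in the F test, the 2 steadiest, the 2 most often at 0, and the 2 nearest the limit on each side. The search for steps was added after the values were seen.

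Replicate numbers recur in all groups. Of 10 group pairs, cisplatin with control B was the single one in which each same-numbered pair of libraries deviated from its group means with a correlation over 0.1, at 0.24, 0.21 and 0.50. That pairing is read from the values, since no label states it.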

Additional observations from a re-analysis of the deposited data

How the results depend on the processing

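Of 183 values of the counts of loci past the threshold under the alternatives, 158 stayed within 1.5 times the value reported. These include each drug against control B, where the reported count was 0, so the pooled number says little about the counts above 0. Quantile normalization gave 7 loci for etoposide against control A and 1 for etoposide against control B. A fit of the compared groups alone gave 0 loci for etoposide, imatinib and cisplatin against control A and for control A against control B, with 4, 4, 3 and 4 loci at an unadjusted p under 0.05 (limma). With fewer libraries behind the spread, it called 0.00553%, 0.0111%, 4.25% and 6.54% of all loci. With each library left out in turn, counts ran from 0 to 4 in the F test, from 0 to 6 for etoposide, 0 to 4 for imatinib and 0 to 7 for cisplatin against control A, and from 0 to 6 for control A against control B. They were 0 throughout for each drug against control B. The cause was not tested. With the replicate block, counts were 3, 3, 3 and 4 for etoposide, imatinib and cisplatin against control A and for control A against control B, 3 in the F test and 0 against control B, the paired cisplatin and control B groups included. It lost 1 locus each for imatinib and cisplatin against control A and changed no other count. Pseudocounts of 0.1 and 10, no filter on low values, median centring and the largest transcript in place of the sum gave counts of 3 or 4 in the same comparisons. The 8 log2 changes past the threshold that are given with their standard error kept their sign in the alternatives run, but calls were lost in 2 to 8 of 21 alternatives each, most often for XLOC_017629 with imatinib. The group shares moved by at most 5.34 percentage points over 30 alternatives. Median centring, which removes a shift of all loci of 0.25 for cisplatin against control A and of -0.18, -0.21 and -0.24 for etoposide, imatinib and control A against control B, left the loci past the threshold at 3 or 4 and 0.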
